A study of Homo sapiens with 9 samples.

Results

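Tubulins are the building blocks of microtubules, and microtubule-associated proteins bind the finished polymer and set its stability, growth and transport. Their transcripts were followed in Hec50 cells, an endometrial cancer cell line, through every probe set of the array whose only annotated symbol was 1 of 35 listed tubulin and microtubule-regulator genes. This rule gave 97 of the 54675 probe sets on the array, and all 35 genes had at least 1 (at most 7, with 8 genes on a single probe set). A further 2 probe sets, shared by TUBB2B with TUBB2A and by STMN1 with a microRNA gene, were not members, and neither passed a test. Total RNA from 9 samples of this 1 line was hybridised to 1-colour Affymetrix arrays, and the submitters asked which genes miR-200c controls in an aggressive cancer. The 3 mimic arrays came from cells that received 60 nM miR-200c mimic, the 3 scrambled control arrays from cells that received 60 nM of a scrambled negative control small RNA, both for 48 h, and the 3 mock arrays from mock-transfected cells. The labels name no small RNA for the mock samples, and the scrambled control is the match for the mimic's dose and time.

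Microtubules are hollow polymers of alpha- and beta-tubulin dimers that grow from gamma-tubulin complexes. Structural proteins such as MAP2, MAP4 and tau bind along the lattice, EB, CLIP and CLASP proteins ride on the growing plus end, and stathmins hold free dimers and promote disassembly. Microtubules are the target of the taxanes used against endometrial carcinoma, and the class III beta-tubulin TUBB3, which is abundant in neurons, has been studied as a miR-200c target that affects the response to those drugs. MicroRNAs pair with messenger RNAs mainly through their seed, bases 2 to 8. The mature sequences of the family are shown because the seed decides which transcripts a mimic can pair with. They are RefSeq entries placed on GRCh38.p14, 5′ to 3′, with the seed in capitals.
hsa-miR-200c-3p: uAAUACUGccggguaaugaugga
hsa-miR-200b-3p: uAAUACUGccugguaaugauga
hsa-miR-429: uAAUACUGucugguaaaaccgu
hsa-miR-200a-3p: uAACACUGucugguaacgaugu
hsa-miR-141-3p: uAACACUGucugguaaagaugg
The mature arm miR-200c-3p lies at chr12:6963742-6963764 on the plus strand and shares the seed AAUACUG with miR-200b-3p and miR-429. The other members, miR-200a-3p and miR-141-3p, carry the seed AACACUG. Target sites in the member transcripts were not analysed here.

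The deposited values are centred log2 expression, set so that the 9 arrays of any probe set have a median of 0, so a value says how far an array lies from that probe set's own median. Levels of different probe sets therefore cannot be set side by side, but each probe set could be placed in a level class from the rounding left in the stored numbers. By that class 44 member probe sets lay at 8 or more, 45 from 4 to 8 and 8 below 4 on the original log2 scale. The labels do not say that the 3 arrays of a group came from separate cultures. A p-value here sets a difference of group means against the scatter of these samples alone, and that scatter may be technical. By the highest class among a gene's probe sets, the epithelial, endometrial and mesenchymal markers KRT8, KRT18, EPCAM, PAX8, VIM, CDH2 and FN1 lay at 8 or more, KRT19, CDH1 and ESR1 from 4 to 8, and SOX17 and PGR below 4. Of the markers of other cell types, the leukocyte gene PTPRC and the endothelial gene CDH5 lay below 4, while the leukocyte genes CD3E and CD14, the endothelial genes PECAM1 and VWF and the neural genes SNAP25 and SYP lay from 4 to 8. A class does not say whether a transcript was detected. In these bulk samples fewer cells of a type and less RNA per cell cannot be told apart. As a check of the labels, 2 genes outside the list were read: ZEB1, a transcriptional repressor targeted by miR-200c, fell by 1.57 on the log2 scale against the scrambled control on 212764_at (SE 0.07, limma adjusted p = 1.08e-06), and the epithelial cadherin CDH1 was higher by 3.26 on 201131_s_at (SE 0.12, adjusted p = 5.29e-07). The other ZEB1 probe sets differed by -1.59 on 210875_s_at and -0.65 on 212758_s_at, which passed, and by -0.17 on 239952_at, which did not (adjusted p = 0.419), and CDH1 201130_s_at, at a level below 4, was higher by 0.58 (adjusted p = 0.000884). The 3′ minus 5′ difference of the ACTB control probe sets, a sign of RNA length and labelling, was 0.02 ± 0.08 in mimic arrays, 0.10 ± 0.04 in scrambled control arrays and -0.18 ± 0.03 in mock arrays (SD, n = 3 each). The mock arrays thus stood below both other groups on the ACTB control. The GAPDH control probe sets did not show this, and there the groups overlapped. Their 3′ minus 5′ difference was -0.015 ± 0.035 in mimic, 0.007 ± 0.023 in scrambled control and 0.027 ± 0.035 in mock arrays (SD, n = 3 each). The part of RNA length and labelling in the differences from mock was not tested.

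With miR-200c mimic against the scrambled control, 1 member gene had probe sets called higher and 6 had at least 1 called lower. MAP7, a microtubule stabiliser of epithelial cells that recruits kinesin-1, was higher on all 3 of its probe sets. TUBB and TUBB4A, both beta-tubulins, were lower, as were the plus-end protein MAPRE1 (EB1), the plus-end stabiliser CLASP2, the stathmin STMN3 and the tubulin tyrosine ligase TTL. The lower call came from 1 of 3 probe sets of TUBB, 1 of 6 of CLASP2, 1 of 2 of STMN3 and 1 of 4 of TTL. In all, 3 member probe sets were higher and 7 lower at a Benjamini-Hochberg adjusted p under 0.05 in limma, which is 10 of 97 or 10.3%, against 8.66% of all 54613 probe sets tested (4.52% higher and 4.15% lower). That share is near the background. With 1 mean value per gene, 7 genes passed (20%, against 12.6% of all genes). With only the probe sets of a gene's highest level class averaged, it was 12 (34.3%, against 14.7%). Of the 10 calls, 7 held when any 1 of the 9 arrays was left out and 3 did not. Among members with a level of 8 or more, 9 of 44 passed (20.5%, against 15.9% of all such probe sets). The 3 mimic arrays lay apart from the 3 scrambled control arrays on 44 member probe sets (45.4%, against 24.2% of all), 14 of them higher and 30 lower in the mimic (against 11.7% and 12.5% of all). This share was not split by level, and 44 of the 97 members had a level of 8 or more, against 26.7% of the array's probe sets. Several of the 30 are TUBA1B and TUBA1C probe sets that may also bind related transcripts. The median difference was -0.04 over the members and -0.01 over all probe sets.

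Against mock, more of the list differed. At the same threshold 11 member probe sets were higher and 19 lower, 30 of 97 or 30.9%, against 12.1% of all probe sets (5.07% higher and 6.98% lower). These belonged to 17 genes: TUBD1, TUBGCP3, MAP2, MAP7 and STMN1 were higher, TUBA1A, TUBB, TUBB3, TUBB4A, TUBB4B, TUBB6, MAP1A, MAP4, MAPRE1, CLASP1 and STMN3 were lower, and CLIP1 had probe sets in both directions. In the level class of 8 or more 19 of 44 passed (43.2%, against 21.9%), and from 4 to 8 it was 11 of 45 (24.4%, against 10.8%). The mimic and mock arrays lay apart on 51 members (52.6%, against 28.2% of all), 14 higher and 37 lower (against 13.6% and 14.6%). None of the 8 members below 4 passed in any comparison. Few of all probe sets at that level did. The share was 0.989% in mimic against scrambled control, 1.39% in mimic against mock and 0.255% in scrambled control against mock. The scrambled control itself differed from mock on 7 member probe sets, 2 higher and 5 lower (7.22%, against 4.07% of all, 1.23% higher and 2.84% lower), and 0 of these reached 1.5-fold (against 0.271%). Their arrays lay apart on 42 members (43.3%, against 24.6%), 15 higher and 27 lower (against 12% and 12.6%). The comparisons share arrays, so their counts are not independent, and several member probe sets share a gene. Of the 30 calls against mock, 13 held when any 1 of the 9 arrays was left out and 17 did not. The count was 15 without mock replicate 2, 16 without mimic replicate 2, 17 without mock replicate 1 or 3 and 19 without mimic replicate 3, and it lay between 23 and 28 without each of the other 4 arrays. For scrambled control against mock the count was 2 without scrambled control replicate 1 or 3 or mock replicate 1 or 3. That is 2.06% of members, against 1.81%, 1.72%, 1.55% and 2.28% of all probe sets in that order, so near the background. The count was 3 without mock replicate 2 (3.09%, against 1.34%) and 4 without scrambled control replicate 2 (4.12%, against 2%). For mimic against mock the members' share was 15.5% without mock replicate 2, against 7.96% of all probe sets. It was 16.5% without mimic replicate 2 (against 8.59%) and 19.6% without mimic replicate 3 (against 8.62%). Without mock replicate 1 or 3 it was 17.5%, against 8.25% and 9.74%. Without each of the other 4 arrays it lay between 23.7% and 28.9%, against 10.6% to 12.1%.

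**Figure D1:**
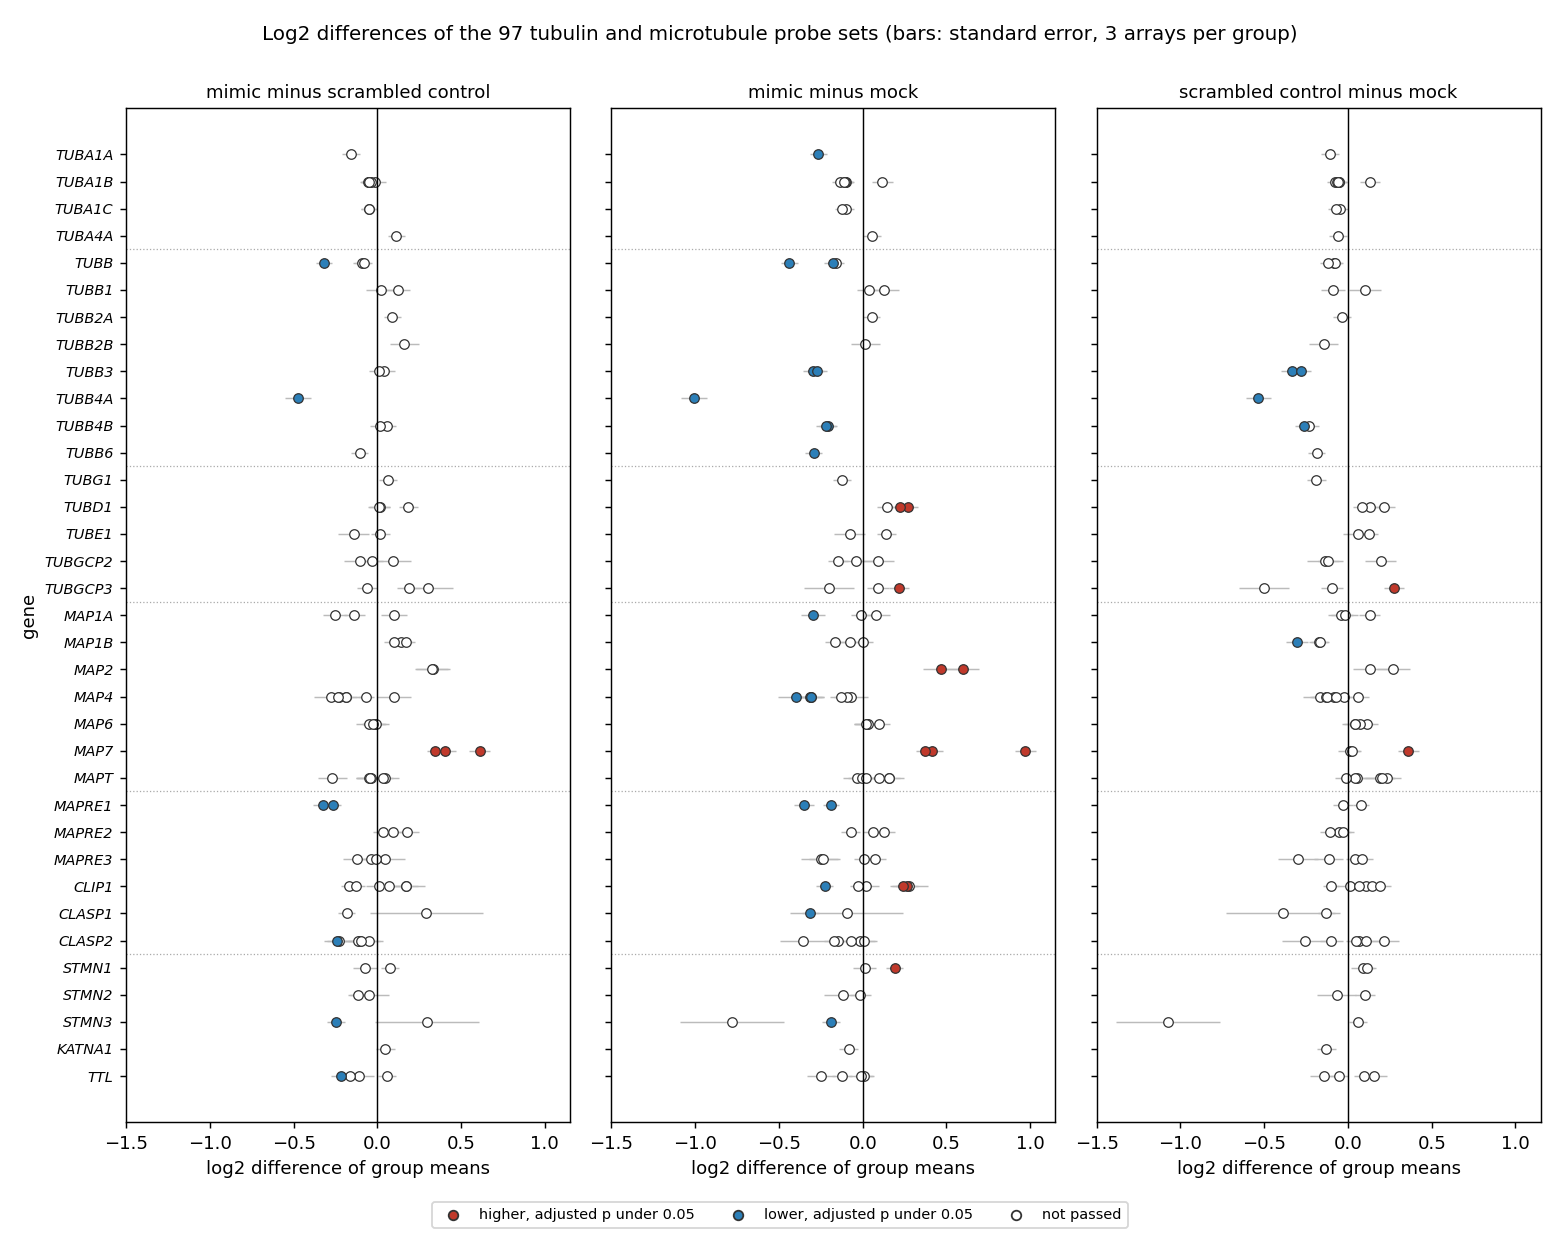
Log2 differences of group means (x axis) for the 97 probe sets of the 35 genes (y axis, grouped by role), in mimic minus scrambled control, mimic minus mock and scrambled control minus mock; bars are standard errors with 3 arrays per group and filled points passed at an adjusted p under 0.05. MAP7 lies to the right on all 3 probe sets in both mimic comparisons, and TUBB4A lies to the left at -0.47, -1.01 and -0.53.

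Split by role, the beta-tubulins carried the highest share against mock. Of their 13 probe sets 8 were lower and 0 higher (61.5%), and these 8 belonged to 5 genes. Of all probe sets 12.1% passed in this comparison (6.98% lower), and of those at a level of 8 or more 21.9% (13.6% lower). Structural proteins had 5 higher and 5 lower of 28 (35.7%), and plus-end proteins 2 higher and 4 lower of 23 (26.1%). The gamma, delta and epsilon tubulins with their nucleating complex had 3 higher and 0 lower of 12 (25%). The alpha-tubulins had 1 lower of 10 (10%), and stathmins, katanin and TTL had 1 higher and 1 lower of 11 (18.2%). The difference between roles was not tested, and 7 of the 13 beta-tubulin probe sets carry the suffix _x_at, which the manufacturer gives to probe sets that may also bind related transcripts.

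**Figure D2:**
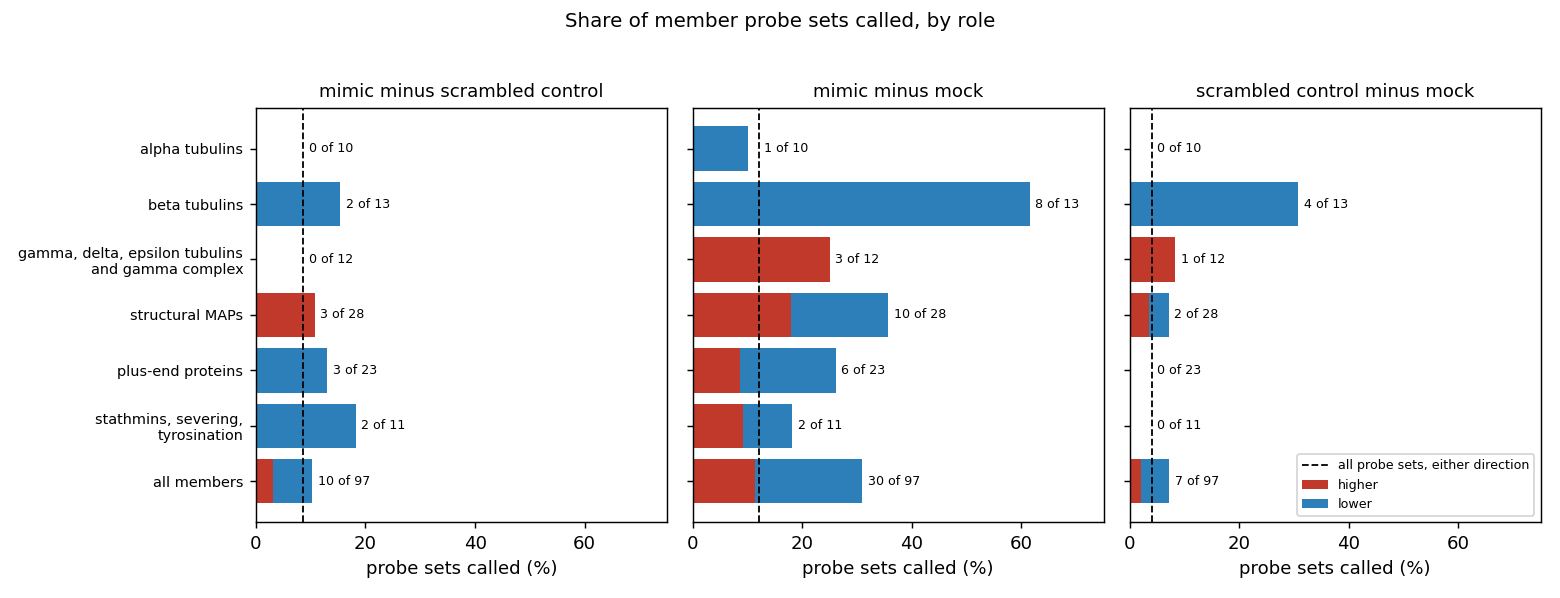
Percentage of probe sets called higher or lower in each role (bars, with the count beside each), in the 3 comparisons; the dashed line is the percentage of all 54613 probe sets called in either direction (8.66%, 12.1% and 4.07%). Beta-tubulins stand at 8 of 13 in mimic minus mock and 4 of 13 in scrambled control minus mock, all of them lower.

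Among the beta-tubulins, which carry the dimer's exchangeable GTP site and bind the taxanes, TUBB4A had the largest differences. TUBB4A, the class IVa isotype best known from brain, read -0.54, -0.59 and -0.29 in the mimic arrays, 0.02, 0.00 and -0.02 in the scrambled control arrays and 0.47, 0.56 and 0.57 in the mock arrays. The 3 groups did not overlap, with mimic lowest, scrambled control in the middle and mock highest. Its difference was -0.47 (SE 0.08, adjusted p = 0.0032) against the scrambled control, a 1.39-fold lower level, and -1.01 (SE 0.08, adjusted p = 2.71e-05) against mock, 2.01-fold lower. The scrambled control was itself -0.53 (SE 0.08, adjusted p = 0.00617) relative to mock, 1.45-fold lower. All 3 differences passed whichever array was left out.

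TUBB, the class I isotype present in most cells, was read by 3 probe sets that differed in size. On 212320_at the values were -0.30, -0.32 and -0.33 in the mimic arrays, 0.01, 0.00 and 0.00 in the scrambled control arrays and 0.17, 0.12 and 0.08 in the mock arrays. Every mimic array lay below every control array, and the 3 scrambled control arrays were nearly identical. The difference was -0.32 (SE 0.05, adjusted p = 0.00215) against the scrambled control, 1.25-fold lower, and -0.44 (SE 0.05, adjusted p = 0.000279) against mock. The 2 probe sets with the suffix _x_at showed less of it. On 209026_x_at the difference was -0.09 (SE 0.05, adjusted p = 0.351) against the scrambled control and -0.18 (SE 0.05, adjusted p = 0.0493) against mock. On 211714_x_at it was -0.08 (SE 0.05, adjusted p = 0.414) and -0.16 (SE 0.05, adjusted p = 0.0676) in the same comparisons. The call of 209026_x_at against mock was lost when any 1 of 8 of the 9 arrays was left out, mimic replicate 1 being the exception (adjusted p 0.0609 to 0.16).

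TUBB3 was lower than mock in both mimic and scrambled control arrays and showed no detectable difference between these 2 groups. Both of its probe sets carry the suffix _x_at and may also bind related transcripts, so these values may not be those of TUBB3 alone. Its probe set 202154_x_at read 0.10, -0.08 and 0.00 in the mimic arrays, -0.04, -0.03 and -0.04 in the scrambled control arrays and 0.34, 0.21 and 0.34 in the mock arrays. On 213476_x_at the values were 0.07, -0.10 and -0.08 in the mimic arrays, -0.06, 0.00 and -0.07 in the scrambled control arrays and 0.21, 0.22 and 0.28 in the mock arrays. On both probe sets the mimic arrays lay among or beside the scrambled control arrays, and the 3 mock arrays stood above all 6. The difference between mimic and scrambled control was 0.04 with a 95% interval of -0.09 to 0.18 on 202154_x_at (adjusted p = 0.768) and 0.01 with an interval of -0.12 to 0.14 on 213476_x_at (adjusted p = 0.964). Against mock the mimic differed by -0.29 (SE 0.06, adjusted p = 0.0108) and -0.27 (SE 0.06, adjusted p = 0.0128) on these probe sets, and the scrambled control by -0.34 (SE 0.06, adjusted p = 0.0165) and -0.28 (SE 0.06, adjusted p = 0.0283). The mimic's call on 213476_x_at was lost without mimic replicate 3 (adjusted p = 0.0513). The scrambled control's call was lost without scrambled control replicate 1 or 3 or mock replicate 1 or 3 on 202154_x_at (adjusted p 0.0531 to 0.065) and without any 1 scrambled control or mock array on 213476_x_at (0.0546 to 0.0889).

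TUBB4B, the widely expressed class IVb isotype, had the same order of groups as TUBB3. Both TUBB4B probe sets also carry the suffix _x_at, and whether they read transcripts in common with those of TUBB3 was not tested. Its probe set 208977_x_at read 0.10, -0.04 and 0.00 in the mimic arrays, -0.04, 0.00 and -0.07 in the scrambled control arrays and 0.22, 0.21 and 0.24 in the mock arrays. The mock arrays again stood above the other 6, which overlapped. The mimic differed from the scrambled control by 0.06 (SE 0.05, adjusted p = 0.61), from mock by -0.21 (SE 0.05, adjusted p = 0.0318), and the scrambled control from mock by -0.26 (SE 0.05, adjusted p = 0.0258). A second TUBB4B probe set, 213726_x_at, gave -0.22 (SE 0.06, adjusted p = 0.0364) for mimic against mock and -0.23 (SE 0.06, adjusted p = 0.0565) for scrambled control against mock. Leaving out mimic replicate 2 or 3 or any mock array ended both TUBB4B calls of mimic against mock, and scrambled control replicate 1 or 3 that of 213726_x_at too (adjusted p 0.0511 to 0.124), and leaving out any scrambled control or mock array ended the call of scrambled control against mock (0.0511 to 0.0866).

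TUBB6, the class V isotype, read -0.04, -0.13 and -0.13 in the mimic arrays, 0.00, -0.01 and 0.02 in the scrambled control arrays and 0.17, 0.19 and 0.21 in the mock arrays. The groups were ordered as for TUBB4A, without overlap. Its difference was -0.11 (SE 0.05, adjusted p = 0.263) against the scrambled control and -0.29 (SE 0.05, adjusted p = 0.00367) against mock, and the call against mock held without any 1 array. The remaining beta-tubulins did not pass in any comparison. TUBB2A differed between mimic and scrambled control by 0.09 (SE 0.05, adjusted p = 0.366), TUBB2B by 0.16 (SE 0.09, adjusted p = 0.338), and TUBB1, the platelet isotype, by 0.02 and 0.12 on its 2 probe sets.

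**Figure D3:**
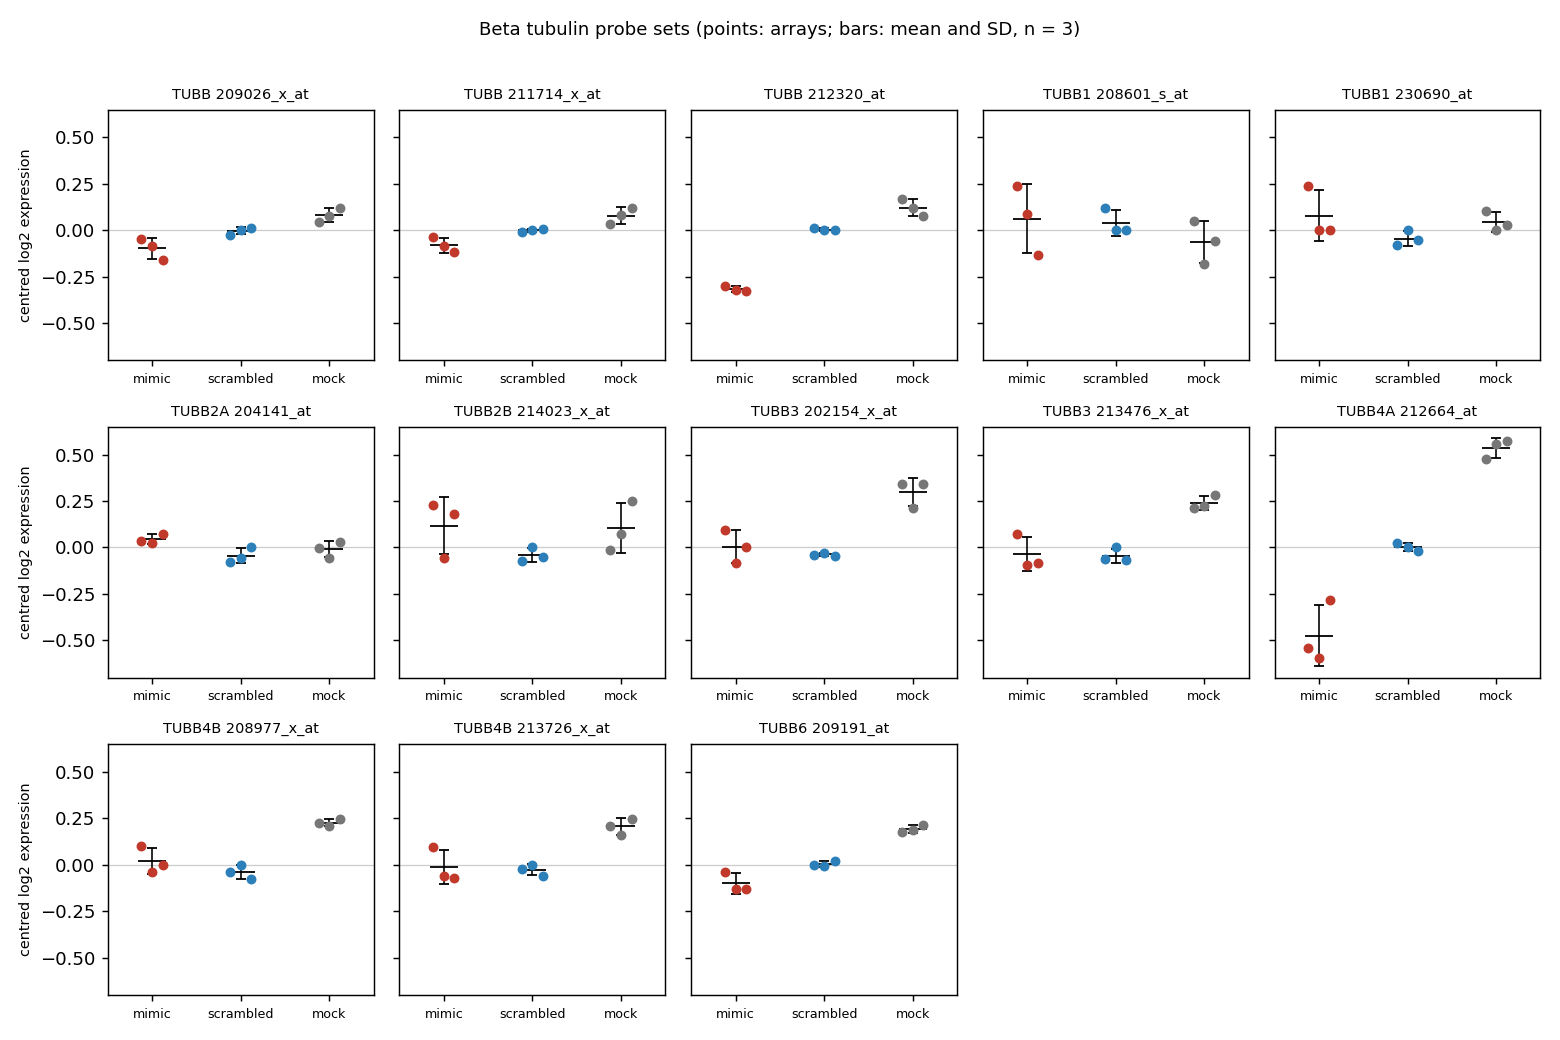
Centred log2 expression (y axis) of the 13 beta-tubulin probe sets on each array (points) in the mimic, scrambled control and mock groups (x axis), with the mean and SD (n = 3). The mock arrays lie highest for TUBB, TUBB3, TUBB4A, TUBB4B and TUBB6. Between mimic and scrambled control the widest gaps, and the only ones that passed, are those of TUBB 212320_at and TUBB4A. These arrays also lie apart, by less, on the other TUBB probe sets, TUBB6 and TUBB2A, with TUBB2A higher in the mimic.

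The alpha-tubulins, which pair with beta-tubulin in the dimer, moved little. TUBA1A, an isotype prominent in developing neurons, read -0.17, -0.10 and -0.19 in the mimic arrays, -0.02, 0.02 and 0.00 in the scrambled control arrays and 0.07, 0.16 and 0.10 in the mock arrays. Mimic, scrambled control and mock arrays did not overlap, in that order from low to high. The difference was -0.16 (SE 0.05, adjusted p = 0.0933) against the scrambled control and -0.26 (SE 0.05, adjusted p = 0.00721) against mock, 1.20-fold lower. TUBA1B and TUBA1C, the main alpha-tubulins of dividing cells, were read by 7 probe sets with the suffix _x_at that agreed closely. Their differences ran from -0.06 to -0.04 against the scrambled control and from -0.13 to -0.10 against mock, and none passed (lowest adjusted p = 0.103, TUBA1B 201090_x_at against mock). A further TUBA1B probe set, 1565668_at, at a level below 4, differed by -0.01 from the scrambled control and 0.12 from mock, and the scrambled control by 0.13 from mock there, and none of these passed. TUBA4A differed by 0.11 (SE 0.05, adjusted p = 0.253) between mimic and scrambled control, with a 95% interval up to 0.23.

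Gamma-tubulin and its complex start new microtubules, and delta- and epsilon-tubulin are needed for triplet microtubules of centrioles. No probe set of this role passed between mimic and scrambled control. TUBD1, the delta-tubulin, was higher than mock on 2 of its 3 probe sets. On 221326_s_at it read 0.08, 0.24 and 0.20 in the mimic arrays, -0.07, 0.00 and 0.02 in the scrambled control arrays and -0.09, -0.13 and -0.08 in the mock arrays. The mimic arrays lay above both control groups, and the mock arrays were the lowest. The difference was 0.19 (SE 0.06, adjusted p = 0.0788) against the scrambled control and 0.27 (SE 0.06, adjusted p = 0.0117) against mock, the call against mock being lost without mock replicate 2 (adjusted p = 0.0504). On 231853_at it was 0.23 (SE 0.07, adjusted p = 0.0476) against mock, lost without any mimic or mock array or scrambled control replicate 1 (0.0695 to 0.145).

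TUBGCP3, a core subunit of the gamma-tubulin ring complex, had 3 probe sets that did not agree. On 1554086_at the values were -0.14, 0.00 and 0.06 in the mimic arrays, 0.02, 0.04 and 0.04 in the scrambled control arrays and -0.23, -0.28 and -0.22 in the mock arrays. Both transfected groups lay above mock there, by 0.22 (SE 0.06, adjusted p = 0.039) for the mimic and 0.28 (SE 0.06, adjusted p = 0.0304) for the scrambled control. On 203690_at the corresponding differences were 0.09 and -0.10, and on 215739_s_at they were -0.20 and -0.50, and none of these passed. The calls of 1554086_at were lost in turn without any array of the 2 groups compared except mimic replicate 1, and for the mimic also without any scrambled control array (adjusted p 0.0505 to 0.135). TUBG1, the gamma-tubulin, differed between mimic and scrambled control by 0.06 (SE 0.06, adjusted p = 0.574). TUBE1 and TUBGCP2 did not pass on any probe set.

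MAP7 gave the largest rise among the 35 genes. On 202890_at it read 0.58, 0.63 and 0.61 in the mimic arrays, -0.04, 0.03 and 0.00 in the scrambled control arrays and -0.49, -0.32 and -0.28 in the mock arrays. On 215471_s_at the values were 0.32, 0.32 and 0.34 in the mimic arrays, -0.03, 0.02 and -0.05 in the scrambled control arrays and -0.09, 0.00 and -0.05 in the mock arrays. On 202889_x_at they were 0.43, 0.30 and 0.30 in the mimic arrays, -0.10, 0.00 and -0.09 in the scrambled control arrays and -0.19, 0.02 and -0.05 in the mock arrays. In each case every mimic array lay above all 6 control arrays. Against the scrambled control the differences were 0.61 (SE 0.06, adjusted p = 0.000183) on 202890_at, 0.35 (SE 0.05, adjusted p = 0.00151) on 215471_s_at and 0.40 (SE 0.07, adjusted p = 0.00385) on 202889_x_at, or 1.53-fold, 1.27-fold and 1.32-fold higher. The probe set 202890_at was the only member called at 1.5-fold or more in this comparison (1 of 97, against 1.31% of all probe sets).

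Against mock the same MAP7 probe sets differed by 0.97 (SE 0.06, adjusted p = 9.78e-06), 0.37 (SE 0.05, adjusted p = 0.000894) and 0.41 (SE 0.07, adjusted p = 0.00282). All 6 of these MAP7 calls held without any 1 array. The probe sets disagreed on the scrambled control, which was 0.36 (SE 0.06, adjusted p = 0.014) relative to mock on 202890_at and 0.02 and 0.01 on the other two. With the mean of the 3 probe sets that difference was 0.13 and did not pass (adjusted p = 0.144). At 1.5-fold or more against mock, 202890_at was joined by TUBB4A and by MAP2 225540_at (3 of 97, against 1.48% of all probe sets).

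**Figure D4:**
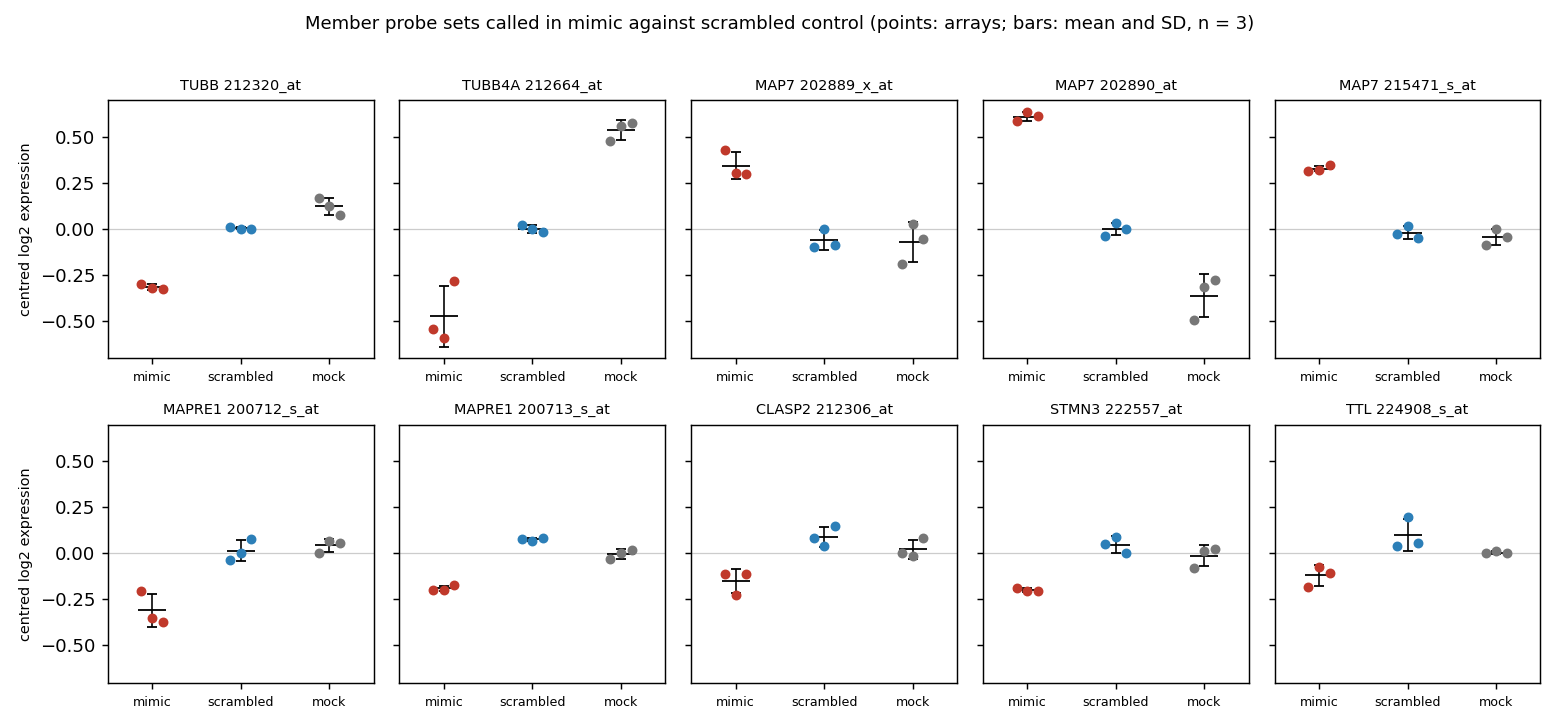
Centred log2 expression (y axis) of the 10 member probe sets called in mimic against scrambled control, on each array (points) by group (x axis), with the mean and SD (n = 3). The 3 MAP7 probe sets are higher and the other 7 lower in the mimic arrays, with every mimic array outside the range of the scrambled control arrays.

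Promoter windows of the genes with the largest rise and the largest fall are shown because ZEB1, whose transcript fell with the mimic, is known to bind E-boxes of the form CACCTG. The windows run from 250 bases before to 50 after an annotated RefSeq start on GRCh38.p14, 5′ to 3′ on the gene's strand, with CACCTG or its reverse complement CAGGTG in capitals. Of each gene's annotated windows, the only one that held a match is printed. For MAP7 the window is chr6:136550373-136550672 and for TUBB4A it is chr19:6502799-6503098, both on the minus strand.
MAP7: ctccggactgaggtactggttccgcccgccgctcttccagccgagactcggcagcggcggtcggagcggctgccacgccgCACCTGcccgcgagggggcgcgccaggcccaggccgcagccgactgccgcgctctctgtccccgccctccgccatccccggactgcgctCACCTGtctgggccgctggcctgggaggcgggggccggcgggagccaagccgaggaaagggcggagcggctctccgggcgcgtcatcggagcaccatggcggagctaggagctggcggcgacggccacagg
TUBB4A: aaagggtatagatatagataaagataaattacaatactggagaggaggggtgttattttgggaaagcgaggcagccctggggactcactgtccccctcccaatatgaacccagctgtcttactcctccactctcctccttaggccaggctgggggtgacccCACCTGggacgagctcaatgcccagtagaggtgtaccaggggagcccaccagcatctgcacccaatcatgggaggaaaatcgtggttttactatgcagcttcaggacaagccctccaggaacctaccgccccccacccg
The MAP7 window held 2 matches, 170 and 81 bases before the start, and the TUBB4A window 1 match, 89 bases before the start. The other 3 annotated MAP7 windows and the other TUBB4A window held none. Of the list's 53 windows 12 held a match (22.6%), against 20.6% of the 35116 windows of all genes, where a gene with several starts has several windows. Counted by gene, 12 of the 32 with a window held a match in at least 1 (37.5%), against 6571 of 27305 genes in all (24.1%). A match is a description of the letters and says nothing about binding.

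MAP2, the stabiliser of neuronal dendrites, was higher than mock on both probe sets. On 225540_at it read 0.44, 0.32 and 0.22 in the mimic arrays, 0.00, 0.05 and -0.05 in the scrambled control arrays and -0.49, -0.25 and -0.07 in the mock arrays. On 210015_s_at the values were 0.36, 0.28 and 0.11 in the mimic arrays, -0.17, -0.08 and 0.00 in the scrambled control arrays and -0.24, -0.41 and 0.00 in the mock arrays. The mimic arrays lay above all control arrays on both, while scrambled control and mock arrays overlapped on 210015_s_at. The differences against the scrambled control were 0.33 (SE 0.10, adjusted p = 0.071) and 0.33 (SE 0.10, adjusted p = 0.0784), which did not pass. Against mock they were 0.60 (SE 0.10, adjusted p = 0.00292), or 1.51-fold higher, and 0.47 (SE 0.10, adjusted p = 0.0139). The call of 210015_s_at was lost without mimic replicate 2 or mock replicate 1 or 2 (adjusted p 0.0503 to 0.0515).

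MAP4, the main lattice-binding protein of non-neuronal cells, was lower than mock on 4 of 7 probe sets and passed on none against the scrambled control. On 33850_at it read -0.15, -0.21 and -0.19 in the mimic arrays, 0.00, 0.20 and -0.04 in the scrambled control arrays and 0.15, 0.09 and 0.13 in the mock arrays. On 212566_at the values were -0.21, -0.40 and -0.18 in the mimic arrays, 0.00, 0.05 and -0.16 in the scrambled control arrays and 0.01, 0.02 and 0.11 in the mock arrays. On 212567_s_at they were -0.12, -0.40 and -0.12 in the mimic arrays, 0.00, 0.27 and -0.09 in the scrambled control arrays and 0.27, 0.18 and 0.11 in the mock arrays. Mimic arrays lay below all mock arrays on these probe sets, and scrambled control replicate 2 was the highest of its group on each. Differences from mock were -0.31 (SE 0.07, adjusted p = 0.0127), -0.31 (SE 0.08, adjusted p = 0.024) and -0.40 (SE 0.10, adjusted p = 0.0313), and 200836_s_at gave -0.31 (SE 0.09, adjusted p = 0.0368). Between mimic and scrambled control the 7 probe sets ran from -0.27 to 0.10, the lowest adjusted p being 0.0519 on 33850_at. The call of 33850_at held without any 1 array. Those of 212566_at (without mimic replicate 2 or any mock array), 212567_s_at (without mimic replicate 2 or mock replicate 1 or 2) and 200836_s_at (without any mimic or mock array or scrambled control replicate 1) did not (adjusted p 0.0521 to 0.129).

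**Figure D5:**
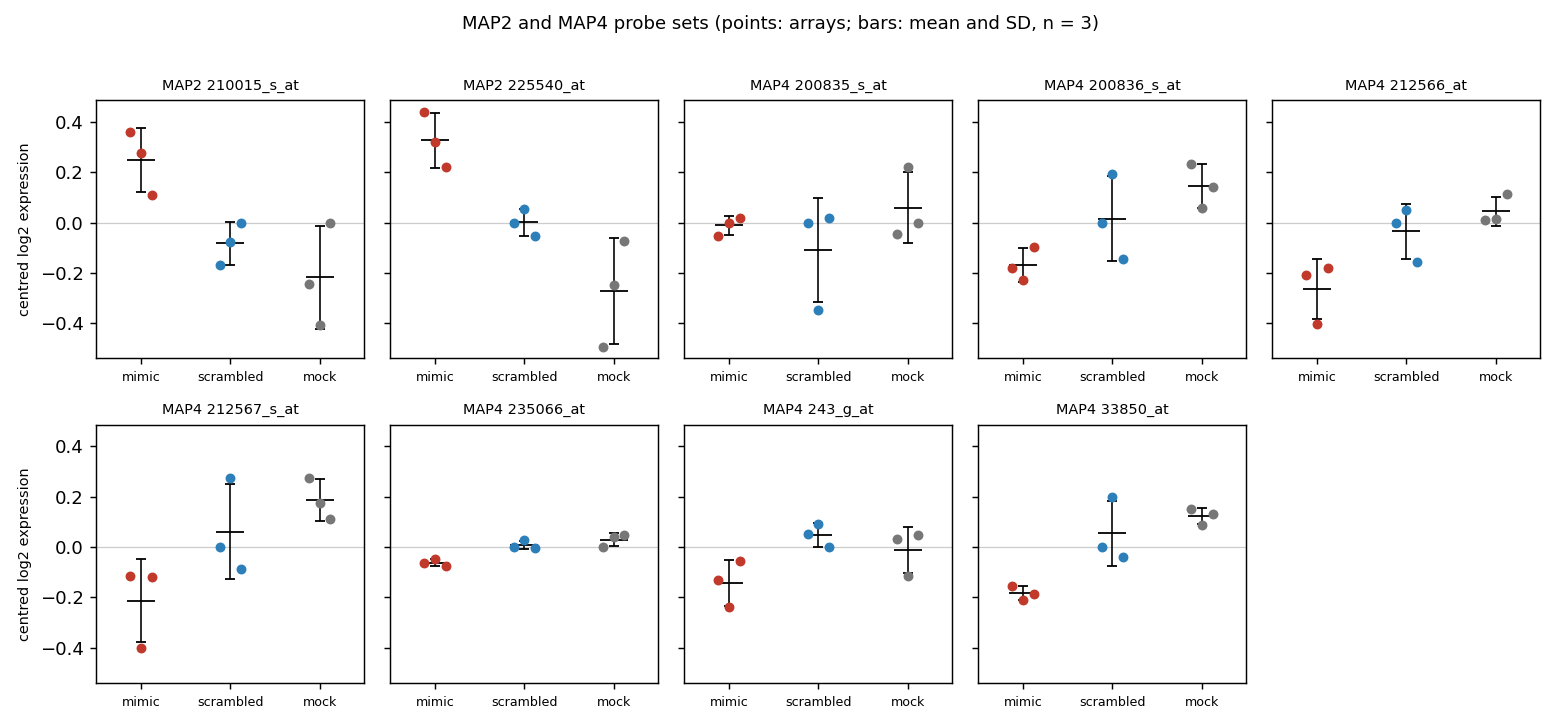
Centred log2 expression (y axis) of the 2 MAP2 and 7 MAP4 probe sets on each array (points) by group (x axis), with the mean and SD (n = 3). MAP2 is highest in mimic arrays on both probe sets, and MAP4 has its lowest mean in mimic arrays on 200836_s_at, 212566_at, 212567_s_at and 33850_at among others.

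The other structural proteins moved less. MAP1A, a neuronal lattice protein, read -0.34, -0.30 and -0.10 in the mimic arrays, 0.02, 0.08 and -0.09 in the scrambled control arrays and 0.08, 0.00 and 0.06 in the mock arrays on 203151_at. The mimic arrays lay below the others, the third mimic array close to the third scrambled control array. The difference was -0.25 (SE 0.07, adjusted p = 0.0588) against the scrambled control and -0.30 (SE 0.07, adjusted p = 0.0234) against mock, and the call against mock was lost without mimic replicate 1 or 2 or mock replicate 1 or 3 (adjusted p 0.065 to 0.0825) and with all 3 probe sets averaged (-0.07, adjusted p = 0.423). Its other 2 probe sets differed from mock by 0.08 and -0.01. MAP1B, active in growing axons, was lower in scrambled control than in mock arrays on 212233_at (-0.30 (SE 0.06, adjusted p = 0.0273)), a call lost without any 1 array of these 2 groups (0.0508 to 0.0962), and its mimic differences did not pass. The tau gene MAPT on 6 probe sets and the cold-stable microtubule protein MAP6 on 4, all from 4 to 8 in level, did not pass in any comparison. The widest MAPT difference between mimic and scrambled control was -0.27 (SE 0.08, adjusted p = 0.084) on 203929_s_at.

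At the plus end, MAPRE1 was lower in mimic arrays on both of its probe sets. MAPRE1 encodes EB1, which binds the growing tip and recruits most other tip proteins. On 200712_s_at it read -0.21, -0.35 and -0.37 in the mimic arrays, -0.04, 0.00 and 0.08 in the scrambled control arrays and 0.00, 0.07 and 0.06 in the mock arrays. On 200713_s_at the values were -0.20, -0.20 and -0.17 in the mimic arrays, 0.08, 0.07 and 0.08 in the scrambled control arrays and -0.03, 0.00 and 0.02 in the mock arrays. All mimic arrays lay below all 6 control arrays on each probe set. Against the scrambled control the differences were -0.32 (SE 0.06, adjusted p = 0.00742) and -0.27 (SE 0.05, adjusted p = 0.00515), or 1.25-fold and 1.20-fold lower. Against mock they were -0.35 (SE 0.06, adjusted p = 0.00389) and -0.19 (SE 0.05, adjusted p = 0.0257). The last call was lost without any 1 mimic or mock array (adjusted p 0.0505 to 0.083), and the others held without any 1 array. Its relatives MAPRE2 and MAPRE3, on 7 probe sets, did not pass in any comparison.

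The CLASP proteins rescue and stabilise growing ends. CLASP2 passed against the scrambled control on 1 of 6 probe sets, 212306_at, which read -0.11, -0.23 and -0.11 in the mimic arrays, 0.08, 0.04 and 0.15 in the scrambled control arrays and 0.00, -0.02 and 0.08 in the mock arrays. The mimic arrays lay below both control groups. The difference was -0.24 (SE 0.06, adjusted p = 0.0273) against the scrambled control and -0.17 (SE 0.06, adjusted p = 0.0849) against mock, and the call was lost without mimic replicate 2 or 3 or scrambled control replicate 1 or 3 (adjusted p 0.0508 to 0.0961). All 6 CLASP2 probe sets were lower in the mimic than in the scrambled control, from -0.24 to -0.05. CLASP1 212752_at read -0.15, -0.24 and -0.14 in the mimic arrays, 0.03, 0.00 and -0.03 in the scrambled control arrays and 0.12, 0.16 and 0.11 in the mock arrays. Its groups did not overlap, and it differed by -0.18 (SE 0.05, adjusted p = 0.054) from the scrambled control and by -0.31 (SE 0.05, adjusted p = 0.00292) from mock, a call that held without any 1 array but not with both CLASP1 probe sets averaged (-0.20, adjusted p = 0.474). The second CLASP1 probe set, 240757_at, had a lone value of -1.28 in scrambled control replicate 2 and did not pass.

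CLIP1, the tip protein CLIP-170, had probe sets that passed in opposite directions against mock. On 210716_s_at it read -0.11, -0.15 and -0.12 in the mimic arrays, 0.00, -0.01 and 0.01 in the scrambled control arrays and 0.06, 0.08 and 0.16 in the mock arrays. On 240444_x_at the values were 0.15, 0.04 and 0.11 in the mimic arrays, 0.12, -0.04 and 0.00 in the scrambled control arrays and -0.11, -0.11 and -0.28 in the mock arrays. On 242287_at they were 0.07, 0.29 and 0.07 in the mimic arrays, 0.00, 0.00 and -0.09 in the scrambled control arrays and -0.05, -0.11 and -0.14 in the mock arrays. The mimic arrays were thus the lowest on 210716_s_at, while on the other two mock had the lowest mean. Against mock the differences were -0.23 (SE 0.05, adjusted p = 0.0141), 0.26 (SE 0.07, adjusted p = 0.0283) and 0.24 (SE 0.07, adjusted p = 0.0477). The first has a level of 8 or more and its call held without any 1 array, but the mean of all 6 probe sets was 0.09 and did not pass (adjusted p = 0.221). The other calls were also lost, on 240444_x_at without mimic replicate 1 or 3 or mock replicate 2 or 3 and on 242287_at without any 1 array but mimic replicate 1 (adjusted p 0.0521 to 0.129). Of the remaining 3 CLIP1 probe sets none passed against mock, and none of the 6 passed against the scrambled control (lowest adjusted p = 0.067, 201975_at).

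STMN3, a stathmin of neurons that sequesters tubulin dimers, had 2 probe sets with different behaviour. On 222557_at it read -0.19, -0.21 and -0.21 in the mimic arrays, 0.05, 0.09 and 0.00 in the scrambled control arrays and -0.08, 0.01 and 0.02 in the mock arrays. The mimic arrays lay below all 6 controls, by -0.25 (SE 0.05, adjusted p = 0.014) against the scrambled control and -0.19 (SE 0.05, adjusted p = 0.0417) against mock. Without scrambled control replicate 2 the call against the scrambled control was lost (adjusted p = 0.0533), as it was with the mean of both probe sets (0.02, adjusted p = 0.947), and the call against mock was lost without any mimic array, scrambled control replicate 1 or 3, or mock replicate 2 or 3 (0.052 to 0.135).

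On 218207_s_at the STMN3 values were -0.12, -0.20 and -0.22 in the mimic arrays, 0.00, -1.46 and 0.03 in the scrambled control arrays and 0.57, 0.77 and 0.46 in the mock arrays. Scrambled control replicate 2 stood far below every other array, and the mock arrays were the highest. The mimic differed by 0.30 (SE 0.31, adjusted p = 0.662) from the scrambled control and by -0.78 (SE 0.31, adjusted p = 0.148) from mock, and the scrambled control by -1.08 (SE 0.31, adjusted p = 0.0874) from mock. Without scrambled control replicate 2 the difference of mimic from scrambled control was -0.20 (adjusted p = 0.285), that of mimic from mock -0.78 (adjusted p = 0.000319) and that of scrambled control from mock -0.59 (adjusted p = 0.016).

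STMN1, the stathmin of dividing cells and a marker of aggressive endometrial carcinoma, showed no detectable difference between mimic and scrambled control on 200783_s_at (0.08 (SE 0.05, adjusted p = 0.461), 95% interval -0.04 to 0.19). Its values there were 0.11, 0.02 and 0.03 in the mimic arrays, -0.06, 0.00 and 0.00 in the scrambled control arrays and -0.10, -0.16 and -0.15 in the mock arrays. The mock arrays were the lowest, and the mimic exceeded them by 0.19 (SE 0.05, adjusted p = 0.0357). That call was lost without any 1 mimic or mock array or scrambled control replicate 3 (0.0512 to 0.119). STMN2, the neuronal stathmin, had a level below 4 on both probe sets and did not pass.

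TTL adds back the terminal tyrosine of alpha-tubulin. On 224908_s_at it read -0.18, -0.07 and -0.10 in the mimic arrays, 0.04, 0.20 and 0.06 in the scrambled control arrays and 0.00, 0.01 and 0.00 in the mock arrays. The mimic arrays lay below both control groups, the mock arrays almost at one value. The difference was -0.22 (SE 0.06, adjusted p = 0.0448) against the scrambled control and -0.12 (SE 0.06, adjusted p = 0.226) against mock. This call was lost whichever of the 9 arrays was left out (adjusted p 0.0584 to 0.143), and the other 3 TTL probe sets did not pass. KATNA1, the catalytic subunit of the severing enzyme katanin, differed by 0.05 (SE 0.06, adjusted p = 0.703) between mimic and scrambled control.

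Other microtubule genes were counted from 6 further lists, 134 of 140 listed genes with 354 probe sets. Between mimic and scrambled control 23 of these probe sets were higher and 28 lower (14.4%, against the 8.66% of all). When only probe sets at a level of 8 or more were fitted, 48 from these lists passed (33.6%, against 29.1% of all). Tubulin-modifying enzymes had 5 of 48 lower and 0 higher, and microtubule-binding proteins outside the 35 genes had 13 higher and 13 lower of 121. Tubulin folding factors and other nucleating proteins had 1 higher and 4 lower of 32, other plus-end proteins 4 higher and 2 lower of 49, and kinesins and dynein subunits 5 higher and 4 lower of 101. None of the 3 probe sets of other tubulins passed. The share called was highest among the other microtubule-binding proteins, at 21.5%.

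VASH2, a tubulin carboxypeptidase that removes the tyrosine which TTL restores, had the smallest p among these lists. On 235343_at it read -0.79, -0.59 and -0.58 in the mimic arrays, 0.34, 0.19 and 0.16 in the scrambled control arrays and -0.06, 0.00 and 0.00 in the mock arrays. All mimic arrays lay below all control arrays, and the difference was -0.88 (SE 0.07, adjusted p = 3.7e-05) against the scrambled control and -0.63 (SE 0.07, adjusted p = 0.000291) against mock. Its relative VASH1 was lower than in the scrambled control, at -0.42 (SE 0.07, adjusted p = 0.00392), on 1 of 5 probe sets. There it did not pass against mock, at -0.14 (SE 0.07, adjusted p = 0.254). The scrambled control differed from mock by 0.28 (SE 0.07, adjusted p = 0.0554). Of the other binding proteins, GAS2L3, which links microtubules to actin, differed by -0.66 (SE 0.05, adjusted p = 4.76e-05) on 238756_at, and MTUS1, a microtubule-binding tumour suppressor candidate, was higher by 0.67 (SE 0.08, adjusted p = 0.000533) on 212093_s_at, each against the scrambled control. Against the scrambled control too, CLIP4, a relative of CLIP1, was higher by 0.47 (SE 0.06, adjusted p = 0.00113), and TTC5, which recognises nascent tubulin and triggers decay of its messenger RNA, was lower, at -0.30 (SE 0.07, adjusted p = 0.0169). The kinesin KIF18B, which binds plus ends in mitosis, was higher than in the scrambled control by 0.36 (SE 0.06, adjusted p = 0.00277) on 222039_at. It did not pass against mock, at 0.12 (SE 0.06, adjusted p = 0.213), and the scrambled control differed from mock by -0.24 (SE 0.06, adjusted p = 0.0479).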

How the data were processed

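The deposited table holds log2 expression of 54675 probe sets on 9 arrays. The authors' deposited log2 values are centred on 0 for each probe set and each array. The probe summary, the normalization and the base of the logarithm are not given in the sources used here, and base 2 was assumed. A level class was read from the step between neighbouring single-precision numbers, which doubles at 4 and 8, and signal over background is not known. Gene symbols came from the platform's annotation. After 62 control probe sets were left out, 54613 remained, of which 41091 had 1 symbol, 1801 several and 11721 none.

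One linear model per probe set, with a mean for each of the 3 groups, was fitted in R 4.3.3 (limma 3.58.1, two-sided moderated test), with Benjamini-Hochberg adjustment over all 54613 probe sets and a threshold of 0.05. Standard errors (SE, median 0.0719) and 95% intervals are those of the fit, and precision is limited by having 3 arrays a group. The fit was tested on simulated data. Member genes, lists and tests were chosen with earlier results of these data known. All member genes could be named, with every array's value for the 24 probe sets called with the smallest adjusted p in either mimic comparison and for some whose probe sets disagree. Of each other list up to 3 genes could be named, by smallest adjusted p. Alternatives changed the normalization, filters on level and ties, the summary per gene, the variance model, the arrays fitted, the replicate block, the fold threshold and each array in turn. Sequences are from RefSeq on GRCh38.p14, and 32 of the 35 genes had promoter windows.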

Additional observations from a re-analysis of the deposited data

How the results depend on the processing

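Among called members, the alternatives kept the direction of every difference except 3, all from averaging the probe sets of a gene that disagree: TUBGCP3 in scrambled control against mock became -0.11 (from 1554086_at), CLIP1 in mimic against mock 0.0914 (from 210716_s_at) and STMN3 in mimic against scrambled control 0.0239 (from 222557_at). Differences of TUBB 212320_at, TUBB4A, MAP7 on 3 probe sets and both MAPRE1 probe sets passed between mimic and scrambled control under every alternative tried, other than the 1.5-fold threshold.

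For mimic against scrambled control, 10 member probe sets became 18 with a level of 8 or more alone. That was 40.9% of such members, against 29.1% of all such probe sets. The 10 became 7 genes with the mean of all probe sets (20%, against 12.6% of all genes). With the highest level class they became 12 genes (34.3%, against 14.7%). With the 1.5-fold threshold 1 was left (1.03%, against 1.31%), and leaving out an array gave 8 to 11. Over all probe sets 4730 became 2500 genes with the mean of all probe sets, 2903 genes with the highest level class and 716 at 1.5-fold (3448 to 4494 without an array). The 51 of other microtubule genes became 25, 31 and 4 under those settings (30 to 45). For mimic against mock, 30 members became 11 genes with the mean of all probe sets (31.4%, against 16.8% of all genes). With the highest level class they became 13 genes (37.1%, against 18.8%). The replicate block gave 17 and the 1.5-fold threshold 3, and leaving out an array gave 15 to 28. Over all probe sets 6585 became 3332, 3711 and 810 without the block setting (4349 to 6599), and the 64 of other microtubule genes 35, 37 and 6 (34 to 64). For scrambled control against mock, 7 members became 12 at a level of 8 or more (27.3%, against 23.9%), 4 with the replicate block and 0 at 1.5-fold (2 to 8). Over all, 2223 became 3486 at a level of 8 or more, 1295 with the mean of all probe sets, 1409 with only the 6 arrays, 1366 with the block and 148 at 1.5-fold (732 to 2059). The 26 of other microtubule genes became 49, 13, 16, 8 and 0 (4 to 23). Summaries per gene test fewer features, and for the other settings the cause was not tested.

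The replicate numbers are not shown to pair samples: deviations of same-numbered arrays correlated between -0.235 and 0.154. With the number as a block, members called were 9 in mimic against scrambled control (9.28%, against 7.22% of all), 17 in mimic against mock (17.5%, against 10.3%) and 4 in scrambled control against mock (4.12%, against 2.5%). Depth of signal over background is not known, so low classes limit what could be detected. No member below 4 passed, and of all probe sets below 4 at most 1.39% passed in any comparison.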
